A study of Homo sapiens with 6 samples.

Results

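The genes described here make cholesterol or control its synthesis through the sterol regulatory element binding proteins (SREBPs). They were 34 genes taken by name from the 19775 that Affymetrix U133 Plus 2.0 arrays measured, and each was read from its brightest probe set with a single gene symbol. FDFT1 and CYP51A1 had no such probe set and were not analysed here, which left 32. The cells were OVCA433, an established human line of high-grade serous ovarian cancer, grown with 10% fetal bovine serum. In 3 control arrays the cells had no treatment, and in 3 versican arrays they had medium with exogenous versican, a proteoglycan of the matrix around cells. Medium was changed 24 hours after seeding, and RNA was taken at 48 hours. The dose and source of the versican are not given in the sources used here, and the treatment text also uses the word transfected for the harvested cells. Samples are described as independent in the series design, with no separate cultures or days named, so p-values measure the spread between these arrays, which may be technical.

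Cells build cholesterol from acetyl-CoA through mevalonate, farnesyl diphosphate, squalene and lanosterol. The SREBP precursors sit in the endoplasmic reticulum membrane bound to SCAP, which senses sterols. When sterols are scarce, SCAP carries the precursor in COPII vesicles to the Golgi, where the site-1 and site-2 proteases MBTPS1 and MBTPS2 release the active factor. INSIG proteins hold SCAP back when sterols are plentiful, and INSIG1 is itself a SREBP target. SREBF2 mainly drives sterol genes and SREBF1 mainly fatty acid genes. Serum supplies lipoprotein cholesterol, which enters through lysosomes and the carriers NPC1 and NPC2.

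Signals are linear values made with MAS5, tested as log2(signal + 16) with limma and Benjamini-Hochberg adjustment over all 9887 genes in the upper 50% by mean. A gene rose or fell where its adjusted p was under 0.05, and fold changes are on that scale. Correlations over genes were 0.993 to 0.995 within a group and 0.969 to 0.972 between groups. The epithelial markers EPCAM, KRT8, KRT18, KRT19, CDH1, PAX8, MUC16 and CLDN4 were all above the filter, with summed signals of 92700 to 107600 in control and 98340 to 100300 in versican arrays. PAX8 rose 1.86-fold, KRT19 fell (log2 -0.21) and the other 6 did not pass. All 15 measured fibroblast, leukocyte and endothelial markers lay below it: the summed signal of 6 fibroblast markers was 275 to 408 in control and 212 to 260 in versican arrays. That of 5 leukocyte markers was 162 to 185 and 129.9 to 191, and that of 4 endothelial markers 226 to 379 and 222 to 315. Signal of the 3 probe sets for 18S ribosomal RNA was 1.15-fold higher with versican, and its part in the results was not tested. In bulk RNA, fewer cells of a kind and less RNA per cell cannot be told apart.

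More sterol genes were lower than higher with versican, and the differences were small. All 32 measured members passed the filter: 13 fell, 2 rose and 17 did not pass. Among all tested genes 20.6% fell and 21.0% rose, against 40.6% and 6.25% of the members. The members were chosen with earlier results of these data known, so these shares are a description only. The members' median log2 fold change was -0.14, against 0.01 over all tested genes. Changes ran from -0.53 for MYLIP to 0.45 for PMVK. Groups did not overlap for 20 members, where 52.2% of all tested genes did not. Of these, 14 were lower and 6 higher (25.6% and 26.6% of all tested genes). After each array was centred on its median, 6 members fell (GGPS1, SC5D, SREBF1, SREBF2, INSIG1 and MYLIP) and the same 2 rose, while 14% of all genes fell. Array medians over all probe sets were 62.8 to 75.8, below the lowest tested mean signal of 201. Quantile normalization and cyclic loess each gave 13 members that fell and 2 that rose. Over all genes 21.0% and 21.2% fell and 21.6% and 21.5% rose with these 2 normalizations.

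**Figure D1:**
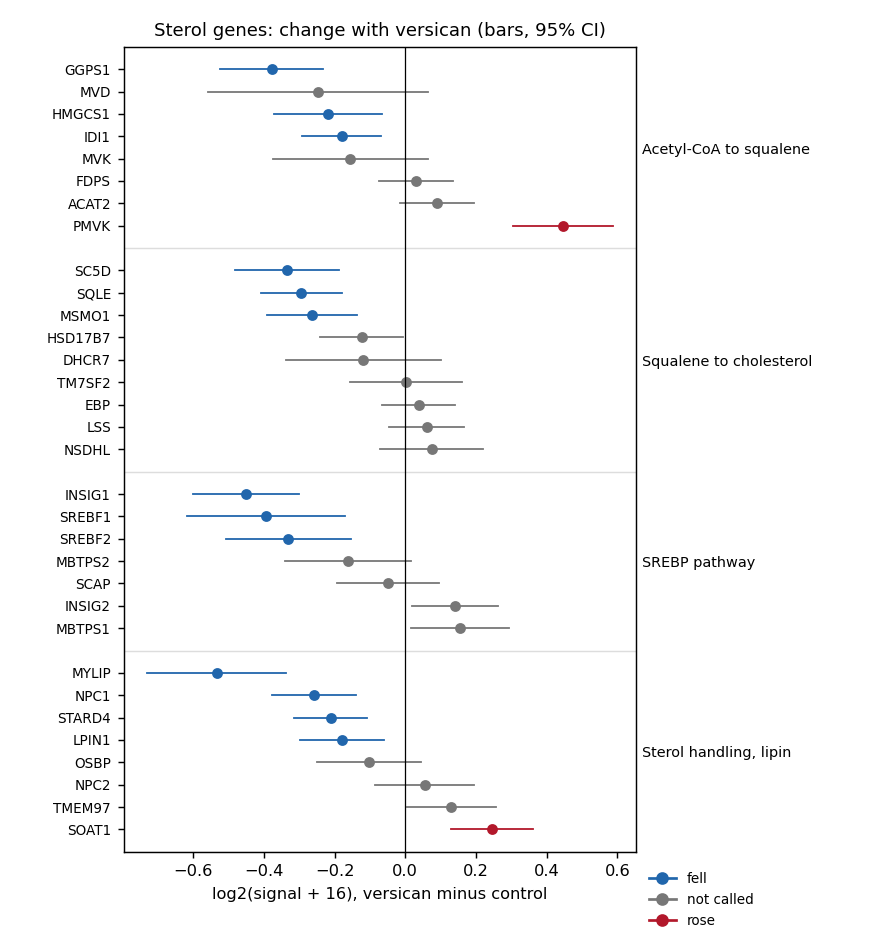
Difference in log2(signal + 16), versican minus control, for the 32 measured sterol genes in 4 role groups; points are limma estimates, bars 95% confidence intervals, and colours the call at adjusted p under 0.05. Lower values outnumber higher ones by 5 to 3, 5 to 4, 5 to 2 and 5 to 3 in the groups from top to bottom. Over all tested genes 48.9% were below 0. Values run from MYLIP at -0.53 to PMVK at 0.45. The group from acetyl-CoA to squalene includes the branch enzyme GGPS1.

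Set against each gene's control mean, the median over the 32 members was -0.04, 0.02 and 0.01 in the 3 control arrays and -0.08, -0.19 and -0.07 in the 3 versican arrays. Versican replicate 2 was the lowest. The same median over all 9887 genes lay between -0.004 and 0.010 on every array. By role group, control and versican medians overlapped from squalene to cholesterol (-0.068 to 0.058 and -0.135 to -0.010). They also overlapped for SREBP control (-0.046 to 0.060 and -0.279 to -0.023), and not for the other groups.

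Both SREBP genes and their feedback target INSIG1 fell, while the sterol sensor SCAP did not pass. Of the 7 genes of SREBP control 3 fell (42.9%, where 20.6% of all tested genes did) and none rose (21.0% of all). SREBF2, the factor of the sterol program, had signals of 652, 721 and 649 in control and 522, 532 and 542 in versican arrays. Every versican array was below every control array, and the change was 1.26-fold lower (log2 -0.33, SE 0.08, adjusted p = 0.0074). SREBF1, the factor of the fatty acid program, had signals of 935, 920.0 and 756 in control and 647, 605 and 720.0 in versican arrays. It was 1.31-fold lower (log2 -0.39, SE 0.10, adjusted p = 0.010), with the highest versican array close under the lowest control array. Which SREBF1 isoforms its probe sets read was not examined here. The 2 further SREBF2 probe sets, both dim, had log2 changes of -0.01 and -0.14 (adjusted p = 0.97 and 0.71), and the mean of its probe sets did not pass (-0.16, adjusted p = 0.39). SREBF1's further probe set had -0.46 (SE 0.23, adjusted p = 0.15).

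INSIG1, which retains SCAP in the endoplasmic reticulum, had signals of 11562, 9759 and 11278 in control and 8031, 7631 and 8104 in versican arrays. The groups were well apart, and INSIG1 was 1.37-fold lower (log2 -0.45, SE 0.07, adjusted p = 0.00047). Its 2 further probe sets also fell, by 0.32 and 0.25 on the log2 scale. INSIG2, which does the same work and is no classical SREBP target, had signals of 1932, 2019 and 2078 in control and 2165, 2174 and 2310.4 in versican arrays. All versican arrays were higher, yet INSIG2 did not pass (log2 0.14, 95% interval 0.02 to 0.26, adjusted p = 0.062). The changes of INSIG1 and INSIG2 differed by -0.59 (two-sided exact permutation p = 0.10 and 0.13 adjusted over the 4 gene pairs compared, where 0.10 is the lowest p for 3 against 3). Those of SREBF1 and SREBF2 differed by -0.06 (exact permutation p = 0.60, also 0.60 adjusted).

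SCAP had signals of 945, 1032 and 994 in control and 974, 955 and 939.7 in versican arrays, so the groups overlapped (log2 -0.05, 95% interval -0.19 to 0.10). The site-1 protease MBTPS1 had 1203, 1285 and 1185 against 1329, 1335 and 1429.8, with all versican arrays higher. It did not pass (log2 0.15, adjusted p = 0.071). The site-2 protease MBTPS2 had 3363, 2950.5 and 2906 against 3056, 2525 and 2668, with overlap. Its log2 change was -0.16 (adjusted p = 0.14). MBTPS2 fell with the replicate number as a block (adjusted p = 0.040) and without versican replicate 1 (log2 -0.24, adjusted p = 0.039).

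Promoter sequence is shown for SREBF2, whose promoter entry held the exact sterol motif given below, and for the INSIG pair, of which only INSIG1 passed the test. It is also shown for a sterol enzyme and an ester-forming enzyme that moved in opposite directions. The RefSeq promoter table (GRCh38.p14) held 31 of the 34 genes, and ACAT2, FDFT1 and SQLE were not matched. Each line gives the 250 bases before the annotated start. Capitals mark the sterol regulatory element TCACNCCAC and the NF-Y box CCAAT, on either strand, so that ATTGG is CCAAT read from the other strand. NF-Y is a factor that commonly binds beside SREBPs.
SREBF2, chr22:41832855-41833104, plus strand: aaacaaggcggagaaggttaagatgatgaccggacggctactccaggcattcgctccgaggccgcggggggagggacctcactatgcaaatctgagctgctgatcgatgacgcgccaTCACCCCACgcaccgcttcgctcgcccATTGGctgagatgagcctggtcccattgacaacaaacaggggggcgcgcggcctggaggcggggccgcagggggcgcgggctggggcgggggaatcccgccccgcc
INSIG1, chr7:155297628-155297877, plus strand: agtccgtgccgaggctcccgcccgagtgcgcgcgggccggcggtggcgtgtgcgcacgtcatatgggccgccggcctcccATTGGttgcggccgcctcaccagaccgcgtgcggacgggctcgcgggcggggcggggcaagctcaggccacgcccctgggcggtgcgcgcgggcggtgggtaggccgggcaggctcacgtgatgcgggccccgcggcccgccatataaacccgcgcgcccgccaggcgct
INSIG2, chr2:118088221-118088470, plus strand: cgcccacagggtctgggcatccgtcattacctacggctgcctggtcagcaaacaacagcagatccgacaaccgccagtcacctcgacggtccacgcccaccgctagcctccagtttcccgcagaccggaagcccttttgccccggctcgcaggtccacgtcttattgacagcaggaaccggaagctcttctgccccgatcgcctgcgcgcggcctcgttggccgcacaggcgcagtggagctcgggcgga
MSMO1, chr4:165327419-165327668, plus strand: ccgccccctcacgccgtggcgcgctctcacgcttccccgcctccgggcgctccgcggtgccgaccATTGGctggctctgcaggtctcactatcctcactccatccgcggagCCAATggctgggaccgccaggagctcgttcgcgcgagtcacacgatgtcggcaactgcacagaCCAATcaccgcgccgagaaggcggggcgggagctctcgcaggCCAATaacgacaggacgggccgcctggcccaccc
SOAT1, chr1:179293547-179293796, plus strand: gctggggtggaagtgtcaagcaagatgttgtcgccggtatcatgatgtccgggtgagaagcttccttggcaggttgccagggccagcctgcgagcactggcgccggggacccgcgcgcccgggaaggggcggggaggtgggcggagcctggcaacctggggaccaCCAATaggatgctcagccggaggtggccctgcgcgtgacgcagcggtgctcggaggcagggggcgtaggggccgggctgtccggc

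The SREBF2 promoter held TCACCCCAC on its plus strand, beginning 133 bases before the start, and an NF-Y box on the other strand, whose first base lies 106 bases before the start. Searched over 250 bases before to 50 after the start, on both strands, TCACNCCAC was found in 1 of 42 promoters of members (2.38%) and in 1.13% of all 35116 promoters, or in 3.23% of 31 member genes and 1.39% of all genes. CCAAT was found in 57.1% of member promoters and 34.6% of all promoters, or in 22 of 31 member genes (71.0%) and 39.7% of all genes. It was in 43.9% of the 8265 tested genes that had a promoter entry. MSMO1 had 4 copies, INSIG1 and SOAT1 1 each, and neither INSIG2 promoter held it. The GC box GGGCGG was in 28 of 31 members (90.3%) and in 78.9% of those tested genes. In the printed SREBF2 sequence the sterol element and the NF-Y box do not overlap. CCAAT was as common in members that fell (9 of 12 with an entry) as in those not called (12 of 16), at 75% in each. A match describes letters only. A miss does not show that a gene lacks a sterol element. Variant letters, bases outside the searched stretch and starts without an entry were not searched.

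In the steps from acetyl-CoA to squalene, counted with the branch enzyme GGPS1, 3 of 8 measured genes fell and 1 rose. These shares are 37.5% and 12.5%, beside 20.6% and 21.0% of all tested genes. PMVK, phosphomevalonate kinase, had signals of 797, 789 and 797 in control and 1131, 1051 and 1083 in versican arrays. Its control arrays lay within a few units of each other and all versican arrays were higher, 1.36-fold (log2 0.45, SE 0.06, adjusted p = 0.00036). PMVK had 1 probe set. GGPS1, which makes geranylgeranyl diphosphate for protein prenylation and so draws from the pathway, had 2872, 2839 and 2718 against 2371, 2021 and 2095. GGPS1 was 1.30-fold lower (log2 -0.38, SE 0.07, adjusted p = 0.0012) with no overlap, and its further probe set fell by 0.39. HMGCS1, which makes HMG-CoA, had 7239.6, 7742 and 7270.1 against 6238, 5859 and 7068, and was 1.16-fold lower (adjusted p = 0.028). IDI1, isopentenyl diphosphate isomerase, had 9307, 10072 and 10087 against 8774, 8644 and 8580.0, and was 1.13-fold lower (adjusted p = 0.016). Both sets of arrays were apart, by little.

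The HMGCS1 and IDI1 calls were lost when certain single arrays were left out, which also left fewer arrays to test. HMGCS1 did not pass without control replicate 2 (log2 -0.19, adjusted p = 0.085), versican replicate 1 (-0.20, 0.091) or versican replicate 2 (-0.16, 0.097). IDI1 did not pass without control replicate 3 (-0.16, 0.067) or versican replicate 3 (-0.17, 0.061). HMGCS1's further probe set had a log2 change of -0.02 (SE 0.05). IDI1's second bright probe set fell by 0.22, but the brightest and this second one carry the _x_at suffix of probe sets that may cross-hybridize. Its only tested probe set without that suffix was dim and had a log2 change of 0.37 (SE 0.27, adjusted p = 0.32). The mean of probe sets passed for neither (adjusted p = 0.11 for HMGCS1 and 0.66 for IDI1).

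FDPS, farnesyl diphosphate synthase, had signals of 15456, 15716 and 15501 in control and 15905, 15721 and 16026 in versican arrays. All versican arrays were higher, by 1.02-fold, which did not pass (log2 0.03, 95% interval -0.07 to 0.13), and the sign turned after quantile normalization (-0.001) and cyclic loess (-0.01). ACAT2, the cytosolic thiolase that joins acetyl-CoA units, had a log2 change of 0.09 (adjusted p = 0.15). The mevalonate enzymes MVK and MVD had -0.16 and -0.25 (adjusted p = 0.23 and 0.19), and groups overlapped for both. PMVK and MVK are kinases of successive steps, and their changes differed by 0.60 (exact permutation p = 0.10, the lowest possible, adjusted p = 0.13 over 4 pairs).

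**Figure D2:**
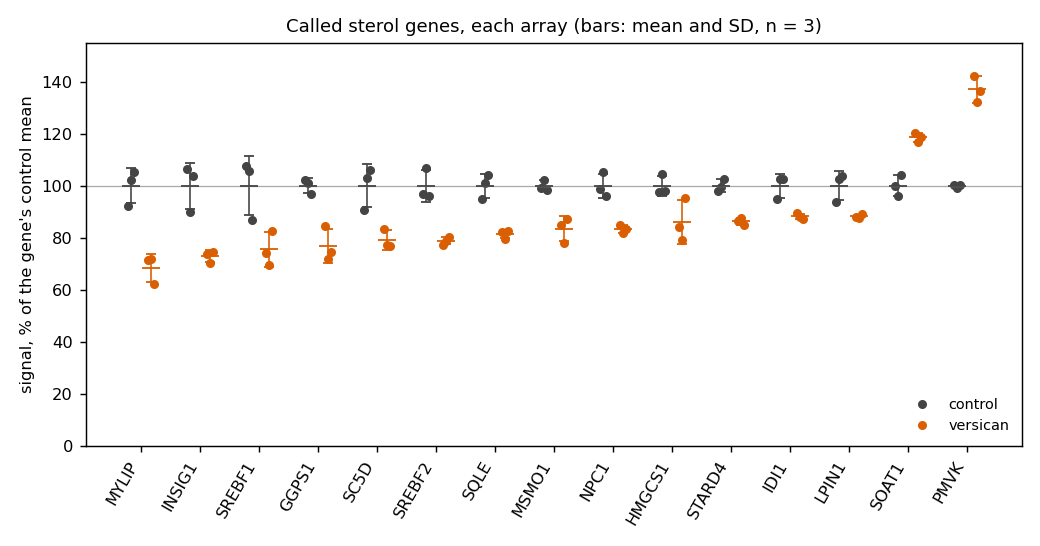
Signal on each array as a percentage of that gene's control mean for the 15 called sterol genes, ordered by change; dots are arrays, dashes and bars the mean and SD of 3 arrays. The 13 genes at left lie below their controls with no overlap, and SOAT1 and PMVK lie above.

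From squalene to cholesterol 3 of 9 measured enzymes fell (33.3%, against 20.6% of all tested genes) and none rose (against 21.0%). SQLE, squalene epoxidase, had signals of 10284, 10934 and 11258 in control and 8916, 8627 and 8923 in versican arrays. It was 1.23-fold lower without overlap (log2 -0.29, SE 0.05, adjusted p = 0.0012). Of its 3 further probe sets 2 fell (log2 -0.45 and -0.21), and the other, which was dim, had -0.17 (adjusted p = 0.37). MSMO1, a C4-methylsterol oxidase, had 19516, 20174 and 19415 against 16735, 15370.2 and 17183, 1.20-fold lower (log2 -0.26, SE 0.06, adjusted p = 0.0046). SC5D, sterol C5-desaturase, had 5355, 6089.8 and 6269.9 against 4934, 4562 and 4529, 1.26-fold lower (log2 -0.33, SE 0.07, adjusted p = 0.0027). Control replicate 1 was the lowest control array for SQLE and SC5D and still lay above all versican arrays. After median centring the calls of SQLE and MSMO1 ended (adjusted p = 0.079 and 0.17), and that of SC5D did not.

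The other 6 enzymes did not pass on their brightest probe sets. LSS, which closes the sterol ring, had 8013, 7455 and 7674 against 7966, 8084 and 8078, with overlap (log2 0.06, 95% interval -0.05 to 0.17). Its 2 dim further probe sets had -0.26 and -0.27 and did not pass. NSDHL, which acts with MSMO1 in removing C4 methyl groups, had 0.07 (95% interval -0.07 to 0.22). EBP, the sterol isomerase, had 0.04 and TM7SF2, a C14-reductase, 0.00 (95% intervals -0.06 to 0.14 and -0.16 to 0.16). HSD17B7, which acts in the same C4 demethylation, had -0.12 (adjusted p = 0.085) and was read by an _x_at probe set. Without control replicate 1 HSD17B7 fell (log2 -0.16, adjusted p = 0.045). DHCR7, the last reductase of the pathway, had -0.12 (adjusted p = 0.37) on its brightest probe set. Its further probe set fell, from 2443 ± 80.4 to 1952 ± 75.8 (SD, n = 3 each, log2 -0.32, adjusted p = 0.0014), as did the mean of both (-0.22, adjusted p = 0.021). The DHCR7 probe sets therefore disagree on the call.

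Among genes that carry, store or regulate sterols and lipids, 4 of 8 fell and 1 rose (50% and 12.5%, with 20.6% and 21.0% over all tested genes). MYLIP, a ubiquitin ligase that marks lipoprotein receptors for degradation and is induced by the oxysterol receptor LXR, had signals of 739, 818 and 842 in control and 570.1, 575 and 498 in versican arrays. It was the member lowered most, 1.45-fold (log2 -0.53, SE 0.09, adjusted p = 0.00091), with no overlap. All 4 of its further tested probe sets fell, by 0.41, 0.41, 0.73 and 0.77 on the log2 scale, and 1 more lay below the filter (log2 0.49, not tested). NPC1, the lysosomal membrane carrier of cholesterol, had 2369, 2522 and 2305 against 2039, 1963 and 2004, 1.20-fold lower (log2 -0.26, SE 0.05, adjusted p = 0.0035). Its partner NPC2, a soluble lysosomal protein, had 15022, 17379 and 15682 against 16359, 17216 and 16299.6, which overlapped (log2 0.06, 95% interval -0.09 to 0.20). STARD4, a cytosolic sterol carrier and SREBP target, had 3976, 4042 and 4177 against 3517, 3560.2 and 3451, 1.16-fold lower (log2 -0.21, SE 0.05, adjusted p = 0.0046). STARD4 had 1 probe set.

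SOAT1, which esterifies cholesterol for storage in droplets, had 1889, 1813 and 1963 against 2269, 2207 and 2241. All versican arrays were higher, 1.19-fold (log2 0.24, SE 0.05, adjusted p = 0.0041). Of its 2 further probe sets 1 rose (log2 0.42) and 1 had 0.35 (SE 0.16, adjusted p = 0.11). LPIN1, a phosphatidate phosphatase that also restrains SREBP in the nucleus, had 3133, 3433 and 3465 against 2937, 2934 and 2977, 1.13-fold lower (adjusted p = 0.022). LPIN1 did not pass without control replicate 2 (log2 -0.16, adjusted p = 0.071), control replicate 3 (-0.15, 0.077) or versican replicate 1 (-0.18, 0.067), and its 2 further probe sets did not pass. NPC1 and STARD4 did not pass after median centring (adjusted p = 0.079 and 0.18). With the mean of probe sets NPC1 had -0.15 (0.37) and LPIN1 -0.11 (0.15).

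OSBP, an oxysterol-binding transfer protein, had a log2 change of -0.10 (adjusted p = 0.24), and fell without control replicate 1 (-0.17, adjusted p = 0.040). TMEM97, the sigma-2 receptor, which binds NPC1, had 0.13 (adjusted p = 0.091) and rose without control replicate 2 (0.18, adjusted p = 0.037). TMEM97's 3 further probe sets had 0.06, -0.04 and -0.20, none called.

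The members had 76 probe sets. More than 1 tested probe set covered 11 of the 15 called members. In 6 of the 11 another probe set passed with the same sign, and in 0 with the opposite sign. The exact letters each probe set reads were not used here.

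**Figure D3:**
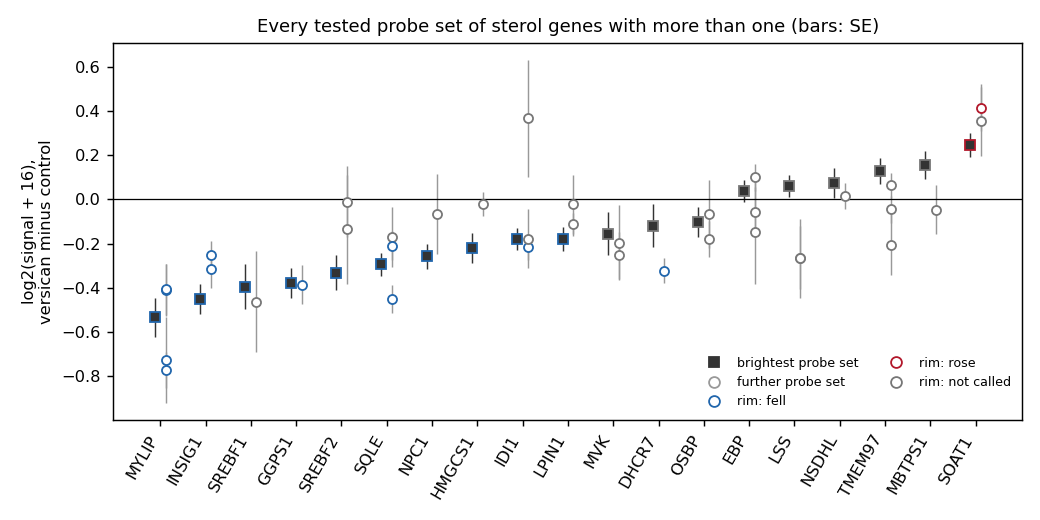
Change on the log2(signal + 16) scale for every tested probe set of sterol genes with more than 1; squares are the brightest probe set, open circles further ones, rims the call, and bars the SE. The tested MYLIP and INSIG1 probe sets all lie below 0, whereas those of IDI1, LSS and TMEM97 lie on both sides.

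Among companion lists, all chosen with earlier results of these data known, that of fatty acid genes driven by SREBPs had the most decreases. Of 10 tested, 6 fell and none rose, with a median log2 change of -0.17 (background 20.6% and 21.0%). ACSS2, which makes acetyl-CoA from acetate, had signals of 4132, 3864 and 4124 in control and 2108, 1773 and 2213 in versican arrays. It was 1.99-fold lower with wide separation (log2 -0.99, SE 0.08, adjusted p = 6.8e-06). FASN, fatty acid synthase, had 5698, 5449 and 4619 against 3465, 3959 and 3500.5, 1.44-fold lower (log2 -0.52, adjusted p = 0.00064). MID1IP1, an activator of acetyl-CoA carboxylase, had 812, 767 and 808 against 486, 579 and 591, 1.43-fold lower (adjusted p = 0.0012). ACACA, that carboxylase, ELOVL5, an elongase, and ME1, malic enzyme, had smaller decreases (log2 -0.23, -0.17 and -0.17). SCD, the stearoyl-CoA desaturase, had -0.06 (95% interval -0.26 to 0.14), and ACLY, ELOVL6 and FADS2 did not pass either (-0.09, 0.04 and -0.13). Leaving out single arrays ended some calls. ELOVL5 was lost without control replicate 3 (adjusted p = 0.065), versican replicate 1 (0.051) or versican replicate 3 (0.056). ME1 was lost without control replicate 2 (0.092), control replicate 3 (0.098) or versican replicates 1, 2 or 3 (0.098, 0.057 and 0.097). The count was 4 without control replicate 3, versican replicate 1 or versican replicate 3, and 3 after median centring or with the mean of probe sets. With that mean FASN had -0.29 (adjusted p = 0.075), ACACA -0.11 (0.36) and ELOVL5 -0.10 (0.49). After median centring ACACA had -0.21 (0.12).

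Of 8 electron donors and alternative enzymes of sterol synthesis 2 rose and 1 fell. These shares of 25% and 12.5% stand beside 21.0% and 20.6% over all tested genes. POR, the cytochrome P450 reductase that passes electrons to sterol-oxidizing enzymes, had 1453, 1283 and 1474 against 765, 673 and 799. It was 1.86-fold lower (log2 -0.90, SE 0.08, adjusted p = 2.1e-05) with the groups far apart. LBR, a C14-reductase that is also a protein of the inner nuclear membrane, had 3686, 3573 and 3685 against 4752, 4841 and 5143, 1.34-fold higher (log2 0.43, SE 0.05, adjusted p = 8.3e-05). LBR and TM7SF2 carry out the same reaction, and their changes differed by 0.42 (exact permutation p = 0.10, the lowest possible, adjusted p = 0.13 over 4 pairs). CYB5B, an outer mitochondrial membrane cytochrome b5, rose by 0.32 (adjusted p = 0.028), a call lost without control replicates 1 or 3 (0.090 and 0.083) or versican replicates 1, 2 or 3 (0.064, 0.054 and 0.079). CYB5B had 0.08 (adjusted p = 0.71) when _x_at and _s_at probe sets were left out and 0.24 (0.069) with the mean of probe sets.

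In the isoprenoid branches 3 of 13 tested genes rose and none fell. ICMT, which methylates prenylated proteins, had 1256, 1376 and 1314 against 1663, 1809 and 1895, 1.35-fold higher (log2 0.44, SE 0.07, adjusted p = 0.00051). PDSS1 and COQ2, of coenzyme Q synthesis, rose by 0.45 and 0.35 (adjusted p = 0.020 and 0.0044). PDSS1 was lost without control replicate 1 (0.056), versican replicate 1 (0.069) or versican replicate 3 (0.079), and COQ2 with the mean of probe sets (0.28). Prenyltransferase subunits FNTA, PGGT1B, RABGGTA and RABGGTB did not pass (log2 -0.08 to -0.02). The shares that rose and fell, 23.1% and 0%, stand beside 21.0% and 20.6% over all genes.

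**Figure D4:**
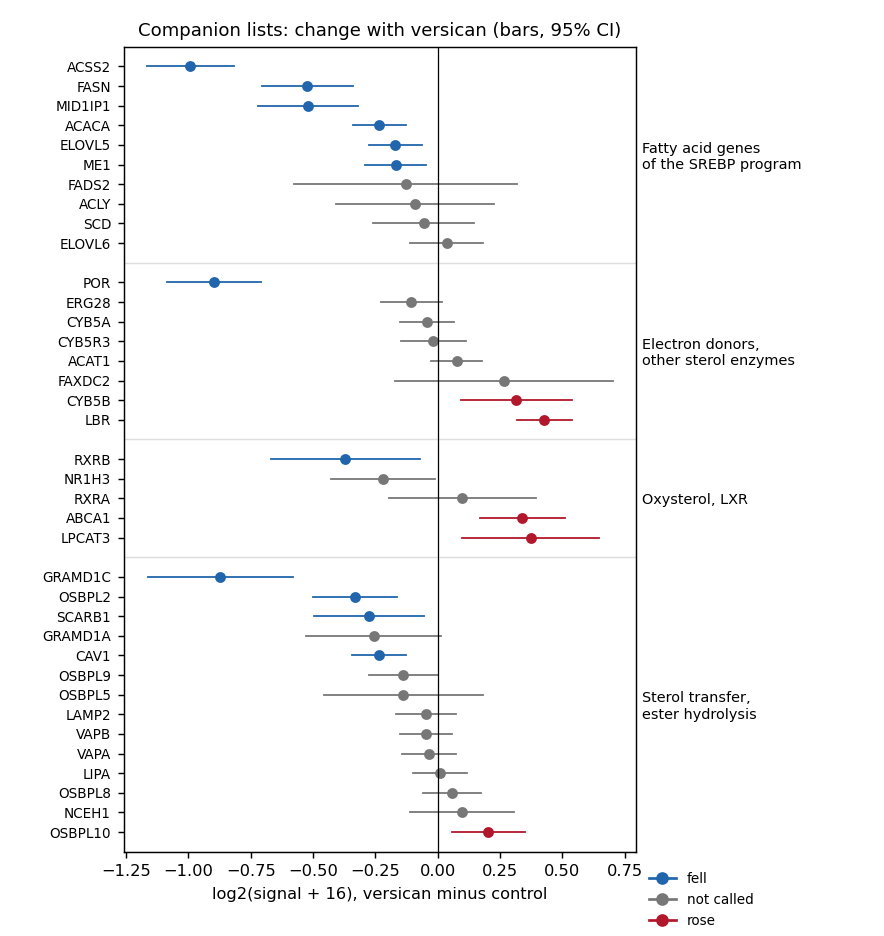
Difference in log2(signal + 16), versican minus control, for tested genes of 4 companion lists; points are limma estimates, bars 95% confidence intervals and colours the call. ACSS2, POR and GRAMD1C lie furthest below 0, at -0.99, -0.90 and -0.87.

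Among 15 tested regulators of SREBP transport and of sterol enzyme turnover 2 rose and 2 fell, 13.3% each way beside 21.0% and 20.6% of all tested genes. SEC23A, a coat subunit of the COPII vesicles that carry SCAP and much other cargo, had 3025, 2794 and 2982 against 2031, 1959 and 1952, 1.48-fold lower (log2 -0.56, SE 0.05, adjusted p = 1.9e-05). SEC24C, a cargo-binding COPII subunit, fell by 0.18 on the log2 scale (adjusted p = 0.042), a call lost without control replicate 2 (0.15), versican replicate 1 (0.13) or versican replicate 3 (0.11). UFD1, a cofactor of the VCP ATPase that extracts ubiquitinated proteins from the membrane, had 2412, 2665 and 2899.7 against 3953, 4300.2 and 4040.5, 1.54-fold higher (adjusted p = 6.4e-05). VCP rose by 0.19 (adjusted p = 0.016), except without versican replicate 3 (0.069) or after median centring (0.16). The ubiquitin ligases RNF139, RNF145 and MARCHF6 had log2 changes of -0.04, -0.02 and -0.03, and the SREBP regulator SPRING1 had 0.01, none called.

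In the sterol transfer and ester hydrolysis list 4 of 14 tested genes fell and 1 rose (28.6% and 7.14%, beside 20.6% and 21.0% of all tested genes). GRAMD1C, of the family that moves cholesterol from the plasma membrane to the endoplasmic reticulum, had 616, 457 and 499.6 against 303, 287 and 244, 1.83-fold lower (log2 -0.87, SE 0.13, adjusted p = 0.00047). OSBPL2, an oxysterol-binding protein relative, was 1.26-fold lower (adjusted p = 0.0056) and CAV1, the caveolae protein caveolin-1, 1.18-fold lower (adjusted p = 0.0034; 0.22 after median centring). SCARB1, a lipoprotein receptor, was 1.21-fold lower with overlap (adjusted p = 0.046). It did not pass without control replicates 2 or 3 (0.16 and 0.058) or versican replicates 1 or 3 (0.15 and 0.14). OSBPL10 rose by 0.20 (adjusted p = 0.032), was lost without control replicates 1 or 3 (0.062 and 0.092) or versican replicates 1 or 3 (0.11 and 0.12), and had -0.04 with the mean of probe sets. LIPA, the lysosomal acid lipase, had a log2 change of 0.01 (95% interval -0.10 to 0.12).

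LXR and oxysterol genes were few above the filter. Of 5 tested, ABCA1 and LPCAT3 rose and RXRB fell, while 41.6% of all tested genes were called in either direction. ABCA1, the LXR-induced exporter of cholesterol, went from 631 ± 43.2 to 802 ± 9.52 (SD, n = 3 each), 1.26-fold higher (log2 0.34, adjusted p = 0.0053). LPCAT3, a phospholipid-remodelling enzyme and LXR target, rose by 0.37 (adjusted p = 0.034), and RXRB, a partner receptor of LXR, fell by 0.37 (adjusted p = 0.047). MYLIP, likewise LXR-induced, moved the other way from ABCA1 and LPCAT3. ABCA1 had -0.02 when _x_at and _s_at probe sets were left out. LPCAT3 was lost without control replicates 1 or 2 (0.098 and 0.076) or versican replicates 1 or 3 (0.076 and 0.13). With the mean of probe sets LPCAT3 had 0.22 (0.13) and RXRB -0.01 (0.97). RXRB also did not pass after quantile normalization (-0.36, 0.053) or cyclic loess (-0.36, 0.053). RXRB was lost without control replicates 1 or 2 (0.14 and 0.10) or versican replicates 1, 2 or 3 (0.083, 0.098 and 0.11). ABCG1, CH25H, CYP27A1 and CYP7B1 lay below the filter.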

How the data were processed

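Total RNA from OVCA433 cells was hybridized as 3 control and 3 versican arrays. The authors deposited 1 table of intensity values, linear probe set signals for which the submitters' processing notes name MAS5. Its version and target are not given in the sources used here. Trimmed by 2% at each end, the mean was 500.1 on every array, so signals were already scaled. Of 54675 probe sets, 41091 had 1 symbol in GEO's platform annotation, 1801 several and 11721 none, beside 62 controls. Symbols were updated through gene identifiers for 41037. No genome was used, and promoter coordinates and sequences are those of RefSeq.

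The fit used limma 3.58.1 in R 4.3.3 on log2(signal + 16) (lmFit, eBayes with an intensity trend, two-sided). Genes were read by their brightest probe set, and the upper 50% (9887, lowest mean signal 201) were tested. On simulated data with 9887 genes and this spread, the fit recovered 92.4% of simulated log2 changes of 1, 67.2% of those of 0.5 and 22.4% of those of 0.25, and called 8 of 9687 unchanged genes. The simulation changed 66 or 67 genes at each size, whereas 41.6% of all tested genes were called in the data. The adjustment was therefore stricter in the simulation, and these rates do not measure recovery in the data. Most member changes were smaller than 0.5, and the number of arrays limits the precision. Single values outside the fit were compared by exact permutation.

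The members and the 6 companion lists were chosen with earlier results of these data known. Every member was to be named, with array values for called members, the 6 brightest and the SREBP, SCAP and INSIG genes, and up to 6 called genes of each companion list. Companion genes named here without a call were chosen after their values were seen. Companion genes not analysed here include FADS1, ACSL3, NR1H2, SYVN1 and SCP2. Alternatives were pseudocounts of 1 and 64, other filters, normalizations, trends and weights, other probe set rules, a replicate block, and leaving out each array. Titles share replicate numbers, but the deviations of same-numbered arrays correlated at 0.12, -0.02 and -0.09, so the numbers were not taken as pairs.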

Additional observations from a re-analysis of the deposited data

How the results depend on the processing

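Of the 15 called members, 7 (PMVK, GGPS1, SC5D, SREBF1, INSIG1, SOAT1 and MYLIP) kept their call in every alternative in which they were tested. Of the 17 members not called, 12 were called in none. With median centring 6 members fell in place of 13. With the mean of probe sets 9 fell, 8 of them among those 13, while 16.2% of all genes fell. All 13 fell with quantile normalization and with cyclic loess. In the upper 25% of genes, where 24 members were tested, 1 rose, and 1 of 25 rose without _x_at and _s_at probe sets, since the other was not tested there. In that upper 25%, 1290 genes of 4943 rose and 1131 fell. The number of fatty acid genes that fell was 3 with median centring and 3 with the mean of probe sets. The alternatives for companion genes were chosen after seeing the data, and 9 of 24 called companion genes kept their call wherever tested. Leaving out each array gave 11 to 15 members that fell, 2 or 3 that rose and medians from -0.17 to -0.10, with 4 to 6 fatty acid genes that fell, and over all genes 16.7% to 19.2% that fell and 16.9% to 19.8% that rose. The replicate block gave 14 members that fell and 2 that rose. Among members the block changed the call of MBTPS2 alone (adjusted p = 0.040), and among called companion genes that of OSBPL10 alone (0.051). Of 6 arrays, 2 correlated best with the array of their own number.

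The following log2 changes turned their sign, and the cause was not tested. FDPS had -0.0012 with quantile normalization and -0.011 with cyclic loess. TM7SF2 had -0.0030 with array weights and from -0.035 to 0.049 as each array was left out. With the mean of probe sets LSS had -0.16, EBP -0.017, MBTPS2 0.12, TMEM97 -0.014 and OSBPL10 -0.037. Without _x_at and _s_at probe sets IDI1 had 0.37 and ABCA1 -0.022. Further probe sets had -0.056 and -0.15 for EBP, 0.37 for IDI1, -0.26 and -0.27 for LSS, -0.046 for MBTPS1, and -0.045 and -0.20 for TMEM97.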
